A study of Mus musculus with 6 samples.

Results

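The genes described here encode the proteins of the cytosolic ribosome, together with the few paralogues that can replace a standard subunit. They were chosen by symbol alone, as genes named Rpl or Rps with a subunit number or as Rplp0, Rplp1, Rplp2 or Rpsa, which gave 84 of the 27131 rows of the table. The large subunit accounted for 51 of them and the small subunit for 33. The RNA came from the levator ani and bulbocavernosus (LA/BC), muscles of the male pelvic floor that depend on androgens, taken at 14 weeks of age from mice on standard chow. One group was 3 wild-type mice (WT) and the other 3 mice of a knock-in line labelled 113Q. The line models spinal and bulbar muscular atrophy (SBMA), which is caused by a lengthened glutamine tract in the androgen receptor. The labels do not give the strain, the allele in full or the litters, and they name 6 separate mice. Each library was made from the whole LA/BC muscle, so every value sums over fibres and the other cells present, and fewer cells of a type and less RNA per cell cannot be told apart.

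Cytosolic ribosomes join a large and a small subunit, each built on ribosomal RNA with many proteins that are needed in nearly equal amounts. Most ribosomal protein mRNAs start with a run of pyrimidines, the 5′ terminal oligopyrimidine (TOP) motif, through which mTOR signalling controls their translation together. Rpl3, a large-subunit protein that reaches towards the peptidyl transferase centre, is replaced in mouse heart and skeletal muscle by the closely related Rpl3l. Background work in mouse muscle describes Rpl3l as falling and Rpl3 as rising when a muscle grows.

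Values are in CPM (counts scaled to a common library size), for which the authors' estimated counts were divided by library sizes that TMM adjusts so that most genes keep the same level. Estimated counts per library summed to between 43581087 and 73873481. The TMM factors ran from 0.768 to 0.794 in WT and from 1.26 to 1.32 in 113Q, with no overlap between the groups, so every direction below is relative to the other genes of the muscle. With library totals alone the median log2 fold change of all 16960 tested genes moved by 0.72. The 11 tested myofibre markers summed to 190902 to 211852 in WT and 49564 to 58823 CPM in 113Q. All 11 passed as lower by edgeR, where 18.1% of all tested genes did. Of 7 satellite cell markers 5 passed as higher, where 16.5% of all tested genes did. With library totals alone 7 of the 11 were lower and 1 higher, and all 7 satellite markers were higher. On that scale 4.19% of all tested genes were lower and 64.9% higher.

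Rpl3l fell and Rpl3 rose in 113Q muscle, so that Rpl3 went from at most 11.0% of the pair to between 25.1 and 43.6% of it per kilobase of mRNA. Rpl3l lies at chr17:24727820-24736143 on the plus strand of GRCm38 (the mm10 assembly of the authors; GENCODE M21) and its coding sequence has 1221 bases in 10 exons. It stood at 869, 856 and 817 in WT and at 282, 412 and 347 CPM in 113Q. Every 113Q mouse was below every WT mouse, with means of 847 ± 27.3 and 347 ± 64.8 CPM (SD, n = 3 each). The log2 fold change was -1.29 (SE 0.13, edgeR adjusted p = 0.000257), or 2.44 times lower.

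Rpl3, at chr15:80077791-80091868 on the minus strand with 1209 coding bases, stood at 88.9, 103 and 99.6 in WT and at 214, 136 and 176 CPM in 113Q. Again the groups did not overlap, and the 113Q mice differed more among themselves than the WT mice did, with means of 97.2 ± 7.39 and 175 ± 39.2 CPM (SD, n = 3 each). The log2 fold change was 0.85 (SE 0.16, edgeR adjusted p = 0.00485). Rpl3 was the only member that passed as higher. Both genes passed with the same sign under each of the other scalings, filters, tools and left-out mice: Rpl3l ranged from -1.42 to -0.57 and Rpl3 from 0.69 to 1.58 on the log2 scale.

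**Figure D1:**
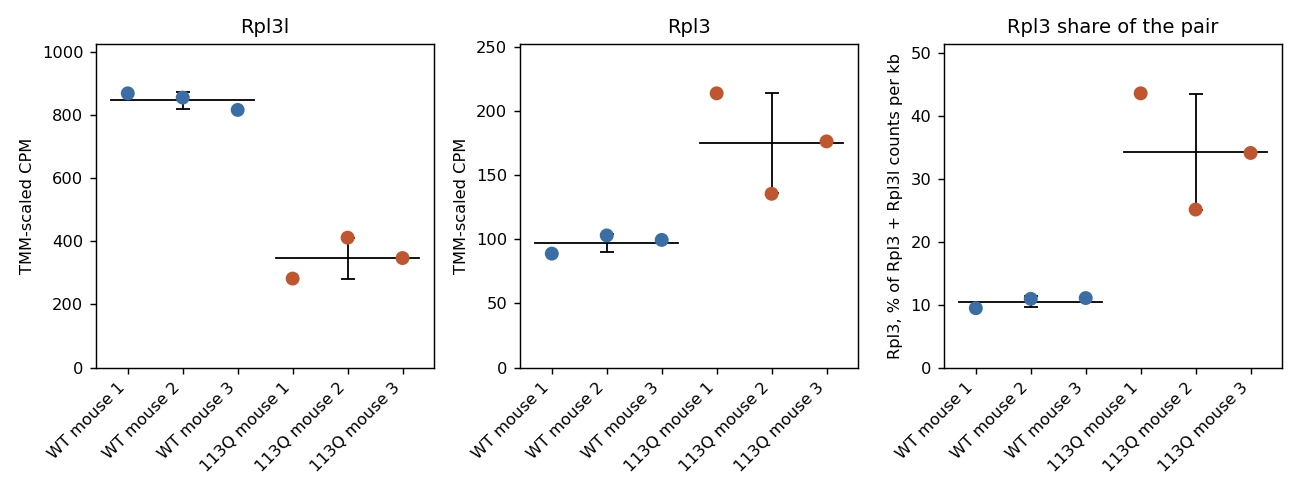
Rpl3l (left) and Rpl3 (middle) in TMM-scaled CPM, and the share of Rpl3 in the sum of both genes per kilobase of mRNA (right), for each of the 6 mice; lines are group means and bars SD over 3 mice. All 113Q mice lie below WT for Rpl3l and above WT for Rpl3, and the Rpl3 share runs from 9.42 to 11.0% in WT and from 25.1 to 43.6% in 113Q.

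A ratio of the genes within a library does not depend on how libraries are scaled. Per kilobase of mRNA, Rpl3l exceeded Rpl3 by 9.61, 8.16 and 8.06 times in the WT mice, but by 1.30, 2.98 and 1.93 times in the 113Q mice. The highest 113Q ratio was below the lowest WT ratio. Expressed as a share of the pair per kilobase, Rpl3 made up 9.42, 10.9 and 11.0% in WT and 43.6, 25.1 and 34.1% in 113Q. The mean log2 ratio was 3.10 ± 0.14 in WT and 0.97 ± 0.60 in 113Q, a difference of -2.13, or 4.39 times. An exact two-sided permutation test gave p = 0.10, the smallest that 3 against 3 mice allow, and 0.25 after Benjamini-Hochberg adjustment over the 5 pairs compared. Leaving out each mouse in turn moved the difference between -2.44 and -1.84.

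The coding sequences of Rpl3l and Rpl3 were identical at 74.8% of 1202 aligned bases, and the longest identical stretch was 22 bases. The deposited estimates of both genes were whole numbers in every library.

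The upstream sequence of Rpl3l is shown because Rpl3l is the member with the largest change. Its starts lack the long pyrimidine run that 29 of 62 members with a listed start carry, so many other members lack it too. RefSeq (GRCm38.p6) gives 2 starts for the gene, and the 250 bases before the first lie at chr17:24727576-24727825 on the plus strand. Capitals mark CAGCTG, an E-box of the kind that muscle basic helix-loop-helix factors bind.
Rpl3l upstream: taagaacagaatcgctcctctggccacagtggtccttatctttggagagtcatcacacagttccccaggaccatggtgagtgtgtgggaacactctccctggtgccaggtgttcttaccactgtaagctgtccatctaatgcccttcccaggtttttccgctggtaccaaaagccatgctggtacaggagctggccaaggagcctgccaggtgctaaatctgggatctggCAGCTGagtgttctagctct
The E-box letters occurred once, beginning 20 bases before the start, and no ETS, YY1, MEF2 or TATA letters, each spelled out further on, were found in that window. These are letters in a window, and binding was not measured.

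Summed, the pair did not stay level on the TMM scale. Rpl3 and Rpl3l together stood at 958, 959 and 916 in WT and at 496, 547 and 524 CPM in 113Q. As a share of all counts in the library, the same sum was 0.0743, 0.0737 and 0.0728% in WT and 0.0654, 0.0694 and 0.0661% in 113Q. Both scales put every 113Q mouse below every WT mouse, by different amounts. Each ribosome takes up 1 protein of the pair, so its sum per kilobase was set beside the other large-subunit genes. In WT it was 698, 699 and 668 CPM per kilobase against a median of 377, 301 and 289 over the other 49 large-subunit members. In 113Q it was 364, 400 and 383 CPM per kilobase against 246, 235 and 273, so the pair was nearer to its family's middle, though still above it. Those 49 members include nearly silent paralogues such as Rpl10l and Rpl39l, and rows listed very low, such as Rpl34. They pull the median down, so how far the pair lay above its family is uncertain. Among all ribosomal protein counts the pair held 3.49, 4.24 and 4.04% in WT and 2.60, 3.06 and 2.69% in 113Q.

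Some other measurements also differed between the groups. Among 9 tested smooth muscle markers Acta2 and Abcc9 passed as higher and Des passed as lower. With library totals alone all 9 were higher, where 64.9% of all tested genes were. With the ribosomal protein total 2 were higher and 0 lower, against 33.2% and 6.75% of all tested genes. The summed level of the list was 6753 to 7241 in WT and 6231 to 6986 CPM in 113Q, most of it Des, which skeletal fibres also express. Acta2, smooth muscle actin, stood at 46.4, 126 and 184 in WT and at 867, 566 and 425 CPM in 113Q. Rgs5, Notch3 and Kcnj8, from the same list, had log2 fold changes of 0.10, 0.12 and -0.13. They did not pass, and their groups overlapped. Cnn1, Myh11 and Tagln, contractile genes of smooth muscle, did not pass on the TMM scale either. Their groups did not overlap, which held for 49.9% of all tested genes. Cnn1 ran from 1.57 to 22.6 CPM in WT and from 76.5 to 202 CPM in 113Q, Myh11 from 29.9 to 197 and from 326 to 864, and Tagln from 43.8 to 147 and from 184 to 439. From high to low, the 113Q order was mouse 1, 2, 3 for Acta2 and mouse 1, 3, 2 for Rpl3, and 3 mice are too few to read it. The 7 tested epithelial markers, with none past the threshold, summed to 1.98 to 55.0 in WT and 1.26 to 91.5 CPM in 113Q. Epcam, an epithelial adhesion protein, stood at 0, 3.83 and 0.0385 in WT and at 0, 8.29 and 10.2 CPM in 113Q. A term for the libraries with Epcam of at least 1 CPM gave log2 fold changes of -1.38 for Rpl3l and 0.89 for Rpl3. Both passed by edgeR, but the term marks only whether a library held Epcam. The parts of smooth muscle and of epithelium in the Rpl3 result were not tested.

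Another pair of translation genes is known to switch between a general and a muscle and nerve form, the elongation factors Eef1a1 and Eef1a2. Eef1a1, the general form, rose in 113Q, from 652, 684 and 786 CPM to 1464, 1166 and 1201 CPM (log2 fold change 0.85, edgeR adjusted p = 0.00106). Eef1a2, the muscle form, stood at 1489, 1716 and 1544 in WT and at 1299, 1572 and 1485 CPM in 113Q, overlapping groups that did not pass (log2 fold change -0.12, edgeR adjusted p = 0.397). The general forms of both pairs were therefore higher, while only Rpl3l among the muscle forms passed as lower on the TMM scale. These genes came from a list of muscle isoform markers that also held Naca and Nacad. Neither passed, with log2 fold changes of 0.16 and 1.12 (edgeR adjusted p = 0.135 and 0.0942), and Nacad was low, at 0.829 to 4.77 CPM. Whether the muscle forms differ from each other in response was not tested.

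For the remaining paralogues the ratio to the standard subunit overlapped between the groups. Rpl22l1, which substitutes for Rpl22, stood at 19.9, 19.3 and 19.9 in WT and at 17.7, 13.9 and 15.7 CPM in 113Q. The groups did not overlap, but the difference did not pass (log2 fold change -0.32, edgeR adjusted p = 0.0547), and the ratio to Rpl22 differed by -0.21 on the log2 scale (exact permutation p = 0.2). Rpl7l1, a relative of Rpl7 found in pre-ribosomes, was measured at 9.91 to 12.5 CPM over all 6 mice, and its ratio to Rpl7 differed by 0.42 (exact permutation p = 0.2). Rps27l, a paralogue of Rps27 known as a p53 target, fell from 79.7, 57.9 and 66.1 CPM to 48.5, 49.3 and 51.5 CPM (log2 fold change -0.45, edgeR adjusted p = 0.0177). That call was lost without 113Q mouse 1 and without 113Q mouse 2. The Rps27l to Rps27 ratio differed by -0.39 (exact permutation p = 0.7).

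Rps4y2, a copy of Rps4x that GENCODE lists as a transcribed processed pseudogene under the name Rps4l, lay between 2.85 and 3.81 CPM in all mice and did not pass. Its ratio to Rps4x differed by 0.36 (exact permutation p = 0.2). Over the 5 pairs the adjusted p was 0.25 for all except Rps27l, where it was 0.7. Rpl10l, known from mouse testis, was at 0 in all 6 libraries. Rpl39l, also a testis form, had estimated counts of 4, 8 and 0 in WT and 4, 2 and 2 in 113Q. Both lay under the filter on low counts, and no ratio was formed for them. Of the standard subunits in these pairs, Rpl10 passed as lower, from 242, 249 and 229 CPM to 200, 182 and 191 CPM (log2 fold change -0.33, edgeR adjusted p = 0.0129), a call lost without 113Q mouse 2 or 113Q mouse 3. Rpl7, Rpl22, Rpl39 and Rps4x had values of -0.29, -0.12, -0.39 and -0.24 that did not pass (edgeR adjusted p = 0.051, 0.43, 0.0671 and 0.0908).

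The other members moved little beside this pair, and mostly downwards relative to other genes. Of the 82 members that passed the filter, 39 (47.6%) passed as lower by edgeR, 1 as higher and 42 did not pass. Among all tested genes 34.6% passed, 18.1% as lower and 16.5% as higher. The direction is that of the TMM, RLE and upper-quartile scalings, under which 39, 41 and 33 members were lower, and it turned with library totals alone, under which 52 members were higher and only Rpl3l was lower. Scaled to their own total, 4 members were lower and 5 higher, as described further on. With library totals 64.9% of all tested genes were higher and 4.19% lower. The groups did not overlap for 55 members, 54 of them with 113Q below WT and Rpl3 above, where 49.9% of all tested genes did not overlap, 24.8% with 113Q below and 25.1% above. The median log2 fold change was -0.34 for the members and 0.01 for all tested genes, and 79 of the 82 members had a value under 0. The interquartile range of the members ran from -0.45 to -0.20. The count of lower members moved with single mice: it was 25 without WT mouse 1 and 26 without 113Q mouse 1. It was 13 without 113Q mouse 2 and 24 without 113Q mouse 3, and 42 in the highest of the fits that left out 1 mouse. Over the whole table those fits called 4325 to 5402 genes, against 5869 with every mouse. The part of the smaller groups in these counts was not tested.

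**Figure D2:**
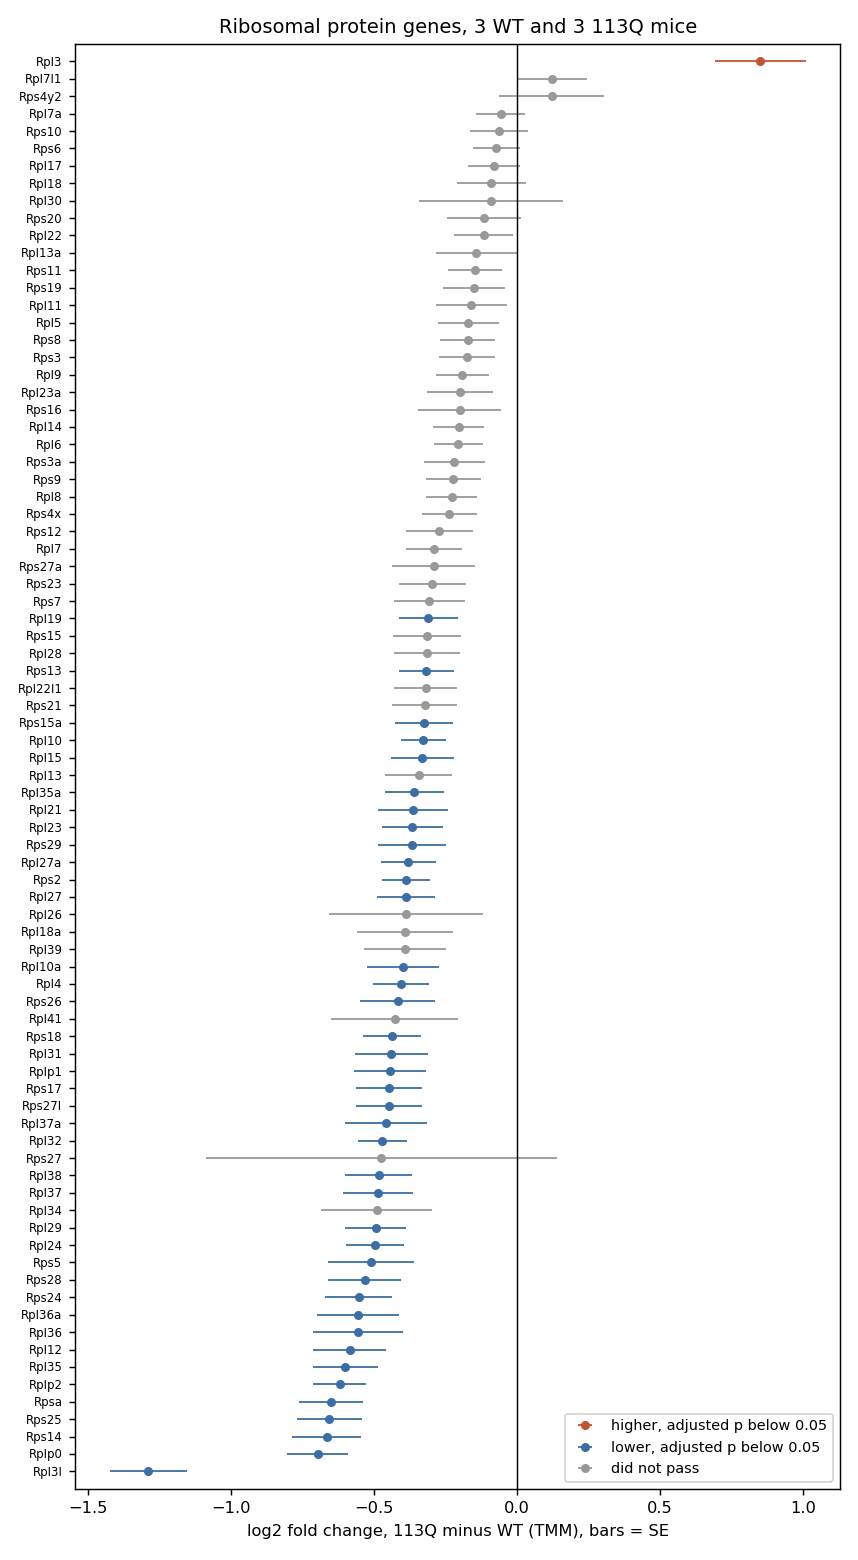
Log2 fold change of each of the 82 tested ribosomal protein genes, 113Q minus WT with TMM scaling, sorted by size; bars are the standard error of the fit over 3 WT and 3 113Q mice, and colour gives the call. Rpl3l at -1.29 and Rpl3 at 0.85 stand apart from the other members, which lie between -0.70 and 0.12.

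The summed level of all 84 members shows both scalings side by side. On the TMM scale the sum was 27493, 22613 and 22677 CPM in WT and, for the 113Q mice, 19084, 17909 and 19458 CPM. As a share of all counts it was 2.13, 1.74 and 1.80% in WT and 2.52, 2.27 and 2.46% in 113Q. The groups did not overlap on either scale, and the order of the groups was opposite. Counting error was small beside this: the Wilson 95% interval in WT mouse 1, the shallowest library, ran from 2.126 to 2.135%, and it covers counting error only. The ratio of large-subunit to small-subunit counts, which needs no scaling, was 1.43, 1.45 and 1.43 in WT and 1.39, 1.42 and 1.40 in 113Q. That ratio was thus nearly constant over mice, with every 113Q value a little below every WT value. Its large-subunit counts include Rpl3 and Rpl3l, which held 3.49, 4.24 and 4.04% of the family in WT and 2.60, 3.06 and 2.69% in 113Q. The small difference between groups therefore includes the fall of this pair, and it is not read as a shift of the other large-subunit members.

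**Figure D3:**
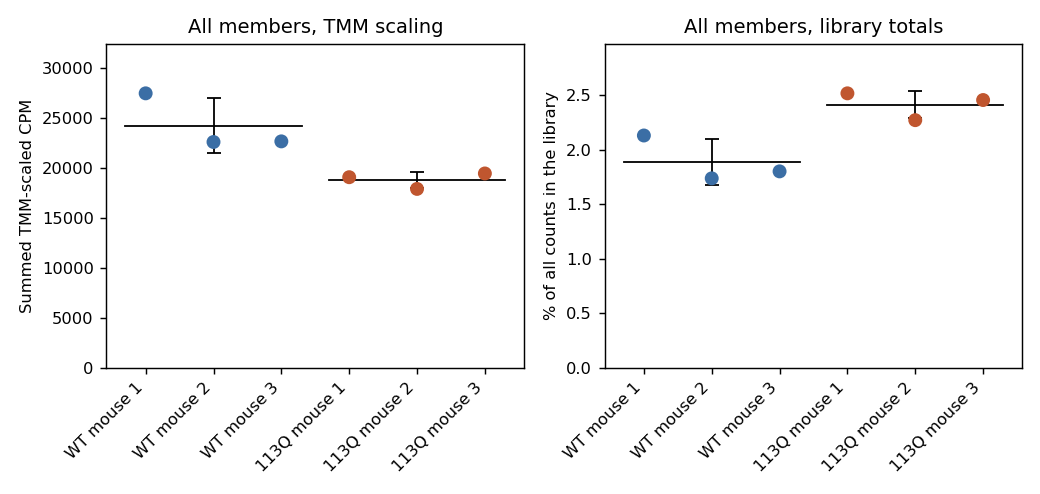
Summed level of the 84 ribosomal protein genes in each mouse, as TMM-scaled CPM (left) and as a percentage of all counts of the library (right); lines are group means and bars SD over 3 mice. The 113Q mice lie below WT on the left (17909 to 19458 against 22613 to 27493) and above WT on the right (2.27 to 2.52% against 1.74 to 2.13%).

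The 7 members that passed as lower by at least 1.5 times were Rpl3l, Rplp0, Rps14, Rps25, Rpsa, Rplp2 and Rpl35. Rplp0, the base of the stalk that recruits elongation factors and a common reference gene for PCR, stood at 1305, 1048 and 1100 in WT and at 659, 724 and 747 CPM in 113Q. The groups were far apart relative to their spread (log2 fold change -0.70, SE 0.11, edgeR adjusted p = 0.00172). Rplp2, its stalk partner, fell from 227, 190 and 199 CPM to 134, 127 and 140 CPM (log2 fold change -0.62, edgeR adjusted p = 0.00138). Rplp1, the other small stalk protein, fell less, from 521, 384 and 413 CPM to 312, 305 and 352 CPM (log2 fold change -0.44, edgeR adjusted p = 0.0254). Its call was lost without WT mouse 1, 113Q mouse 1 or 113Q mouse 2 and with the Epcam term. Rpl12, which sits at the base of the stalk, stood at 361, 259 and 312 in WT and at 223, 189 and 210 CPM in 113Q (log2 fold change -0.58, edgeR adjusted p = 0.0086). These 4 genes were set side by side after their values were seen, Rpl12 having been named only as one of the largest falls, and 47.6% of all tested members passed as lower on this scale. Their log2 fold changes were 0.02, 0.10, 0.27 and 0.14 for Rplp0, Rplp2, Rplp1 and Rpl12 with library totals alone.

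In the small subunit the largest falls were in Rps14, Rps25 and Rpsa. Rps14, a protein of the platform near the decoding site, stood at 635, 482 and 477 in WT and at 338, 324 and 343 CPM in 113Q (log2 fold change -0.66, edgeR adjusted p = 0.0038). Rps25, which many viral internal ribosome entry sites require, stood at 347, 271 and 270 in WT and at 199, 178 and 187 CPM in 113Q (log2 fold change -0.66, edgeR adjusted p = 0.00303). Rpsa, a subunit protein also known as the laminin receptor, stood at 897, 718 and 709 in WT and at 492, 466 and 522 CPM in 113Q (log2 fold change -0.65, edgeR adjusted p = 0.00288). In all 3 genes WT mouse 1 was the highest library and the 113Q mice were close together. WT mouse 1 was the highest WT library for 75 of the 82 tested members, and it was also the shallowest.

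Other large-subunit members fell by similar amounts. Rpl35, near the exit of the peptide tunnel, stood at 236, 190 and 184 in WT and at 145, 126 and 131 CPM in 113Q (log2 fold change -0.60, edgeR adjusted p = 0.00445). Rpl36 and Rpl36a followed with log2 fold changes of -0.56 and -0.55 (edgeR adjusted p = 0.0285 and 0.019). The Rpl36 call was lost without WT mouse 2, 113Q mouse 1 or 113Q mouse 2, and the Rpl36a call without any 1 of the 113Q mice. The smallest change that passed was that of Rpl19, at -0.31.

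At the other end were members whose levels overlapped between the groups. Chosen after their values were seen, Rps6, the substrate of S6 kinase, ran from 350 to 382 CPM in WT and from 328 to 365 CPM in 113Q, and Rpl7a ran from 385 to 433 and from 370 to 416 CPM. Rpl5 and Rpl11, which with 5S RNA form the particle that binds Mdm2, had log2 fold changes of -0.17 and -0.16 that did not pass (edgeR adjusted p = 0.254 and 0.36). By subunit, 25 of 49 tested large-subunit members and 14 of 33 small-subunit members passed as lower, with medians of -0.37 and -0.31. The share lower was 47.6% over both subunits and 18.1% over all tested genes.

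Scaling every library to its own ribosomal protein total asks which members moved against their family. The median over members was then 0.03, near 0 because the scaling uses the members' own sum. On it 5 members passed as higher and 4 as lower, where 33.2% and 6.75% of all tested genes passed. Rpl3 was higher by 1.19 and Rpl3l lower by 0.92 on the log2 scale (edgeR adjusted p = 0.0011 and 0.0022). In percent of the ribosomal protein counts, Rpl3l held 3.16, 3.79 and 3.60% in WT and 1.48, 2.30 and 1.78% in 113Q. Rpl3 held 0.323, 0.456 and 0.439% in WT and 1.12, 0.757 and 0.907% in 113Q. Besides this pair the shifts were small. Rpl7l1, Rps10, Rpl7a and Rpl17 were higher by 0.48, 0.30, 0.30 and 0.29, with edgeR adjusted p of 0.0441, 0.0321, 0.0467 and 0.0411. Rplp0, Rps14 and Rps25 had values of -0.33, -0.29 and -0.29, with edgeR adjusted p of 0.0410, 0.0459 and 0.0450. Rps10, a small-subunit protein at the mRNA entry, held 0.723, 0.717 and 0.739% of the family in WT and 0.885, 0.878 and 0.926% in 113Q. Rplp0 held 4.75, 4.63 and 4.85% in WT and 3.45, 4.04 and 3.84% in 113Q. Neither of these shares overlapped between groups.

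**Figure D4:**
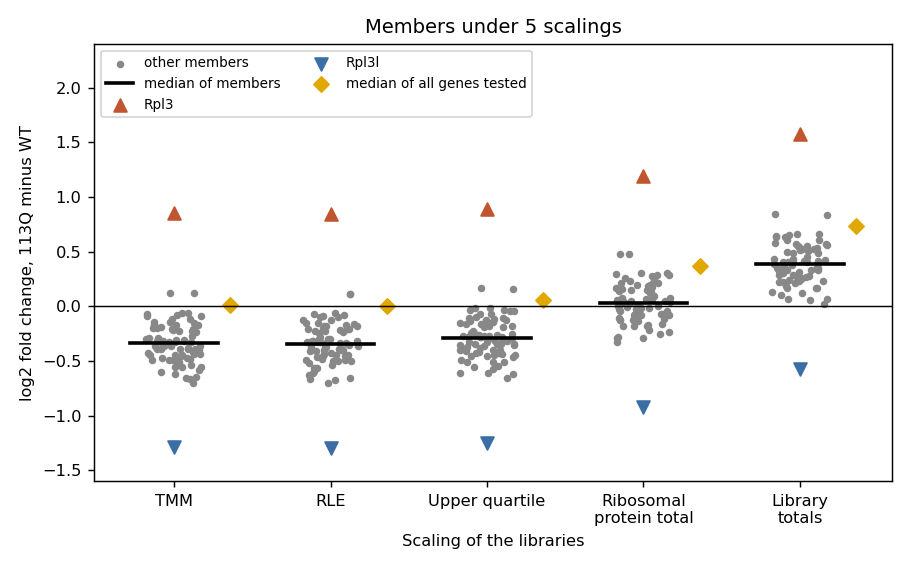
Log2 fold change, 113Q minus WT, of the 82 tested members under 5 ways of scaling the libraries; grey points are single members, black lines their median, diamonds the median of all tested genes, and triangles Rpl3 and Rpl3l. The members' median runs from -0.34 with TMM to 0.38 with library totals and stays below that of all genes, while Rpl3 is above 0 and Rpl3l below 0 in each.

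Levels within the family differed widely, though levels per kilobase depend on the transcript taken for the length. For Rps15a it had 5130 bases, 390 of them coding, which put a WT mean of 190 CPM at 37.1 CPM per kilobase. Per kilobase of mRNA the highest members in WT were Rps2 at 1132, Rps14 at 890, Rplp1 at 881, Rplp0 at 847 and Rps12 at 676 CPM per kilobase. Rps2, a protein of the mRNA entry channel, stood at 1170, 1138 and 1082 in WT and at 838, 844 and 911 CPM in 113Q (log2 fold change -0.39, edgeR adjusted p = 0.00804). Rps12 stood at 384, 290 and 327 in WT and at 290, 253 and 287 CPM in 113Q and did not pass (edgeR adjusted p = 0.106). Rpl3l reached 616 ± 19.9 CPM per kilobase in WT (SD, n = 3), among the upper members of its family, and Rpl3 reached 71.9 ± 5.47.

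At the low end, several standard subunits were listed far under the rest. Rpl34 was at 9.09 CPM per kilobase in WT, Rpl30 at 8.54, Rpl26 at 23.9 and Rps27 at 5.25. For Rpl34 and Rps27 a copy elsewhere in the table held far more counts than the gene. Rpl34-ps1, which RefSeq lists as protein-coding, stood at 161, 142 and 142 in WT and at 152, 117 and 119 CPM in 113Q, while Rpl34 itself stood at 4.68, 4.96 and 3.45 CPM and at 2.92, 3.29 and 3.10 CPM. The row Gm9846, named Rps27rt by RefSeq with Rps27 as an older name, stood at 205, 161 and 150 in WT and at 149, 140 and 149 CPM in 113Q, while Rps27 was at 0.740, 3.81 and 0.886 CPM and at 1.19, 1.36 and 1.38 CPM. Neither copy passed (log2 fold changes -0.20 and -0.24, edgeR adjusted p = 0.234 and 0.157). Reads of a gene and of its copy could be divided between rows by the authors' counting, so the values of Rpl34 and Rps27, and the Rps27l to Rps27 ratio, are uncertain. Exons of Rpl35, Rpl12, Rps25, Rps10 and Rpl22l1 overlap another gene on the opposite strand (Rps10 also the readthrough gene RPS10-NUDT3 on its own strand), and with the strand setting not given their reads cannot be told apart. In all, 8 rows carried a RefSeq name of a copy of a member, and 6 members had a fractional estimate in at least 1 library (Rpl24, Rpl26, Rpl30, Rpl34, Rps15 and Rps27). Rps27 had 25.1, 202 and 46.1 estimated counts in the WT mice and 107, 122 and 129 in the 113Q mice, and its log2 fold change went from -0.47 to 0.69 when WT mouse 2 was left out.

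The size of the change went with coding length across members. Spearman's rho between log2 fold change and coding length was 0.36 over 81 members and 0.39 without Rpl3 and Rpl3l, a description over genes that share the same libraries. Split into 3 classes of length without this pair, the shortest members (75 to 396 coding bases) had a median of -0.44 and 16 of 26 passed as lower. In the middle class (399 to 552 bases) the median was -0.36 with 13 of 26, and in the longest (564 to 1257 bases) -0.23 with 9 of 27. Without this pair 47.5% of all tested members passed as lower, beside 18.1% of all tested genes. Rplp0, Rpsa and Rpl4, all in the longest class, lay below its median. The GC content of the mRNA showed a rho of -0.12. RNA quality and fragment length were not analysed here, and their part in this trend was not tested.

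**Figure D5:**
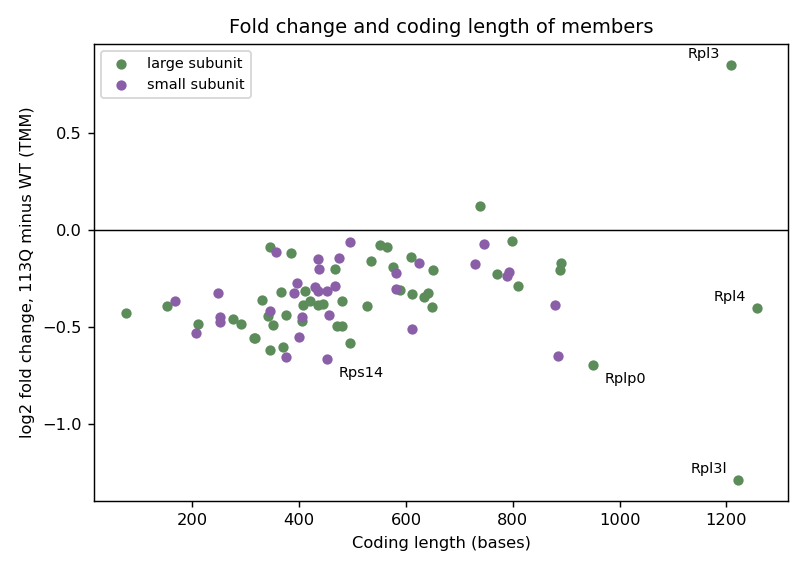
Log2 fold change, 113Q minus WT with TMM scaling, against coding length in bases for the 81 tested members with a coding sequence; each point is a gene, coloured by subunit. Shorter members tend to lie lower, with medians of -0.44, -0.36 and -0.23 from the shortest to the longest class, and Rpl3 and Rpl3l lie far apart at nearly the same length.

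Many ribosomal protein genes carry small nucleolar RNAs, which guide changes to ribosomal RNA, in their introns. By GENCODE M21, 30 members held 58 such genes. Among these hosts 12 of 30 passed as lower with a median of -0.29, and among the tested members without one 27 of 52 did, with a median of -0.38. The share was 47.6% over all tested members and 18.1% over all tested genes. The libraries were prepared as mRNA, and the small RNAs themselves were not analysed here.

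RefSeq start sites were listed for 62 of the 84 members, not including Rpl3. A run of at least 8 pyrimidines touching the 10 bases on either side of the start was present in 29 of them, 46.8%, against 15.8% of the 27025 genes with an entry. The windows below run from 10 bases before to 20 bases after the start, in the direction of transcription, with the longest pyrimidine run near the start in capitals. They set members with a long run beside the 2 starts of Rpl3l.
Rpl35 (chr2:39005112-39005141, minus): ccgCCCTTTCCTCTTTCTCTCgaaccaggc
Rplp2 (chr7:141447641-141447670, plus): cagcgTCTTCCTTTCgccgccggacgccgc
Rps10 (chr17:27635225-27635254, minus): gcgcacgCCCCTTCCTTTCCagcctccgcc
Rps12 (chr10:23787190-23787219, minus): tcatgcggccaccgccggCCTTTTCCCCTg
Rpl3l first start (chr17:24727816-24727845, plus): ttctagctctgtcatttgaCCTCTggtgcc
Rpl3l second start (chr17:24732675-24732704, plus): caacagctacagtgCCCCaaatgtcctgaa
Neither Rpl3l start had a run of 8. The runs did not sort the members by change. Of the tested members, 15 of 29 with a run and 15 of 31 without one passed as lower. Their medians were -0.36 and -0.33. Over all tested members 47.6% passed as lower, and over all tested genes 18.1%. Rpl35 and Rplp2 fell on the TMM scale, while Rps10, with a run of 13, had a log2 fold change of -0.06. The annotated start can lie some bases from the one used in muscle, which these counts do not show.

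In the 250 bases before the start, on either strand, CCGGAA, the core bound by ETS factors such as GABP, occurred in 25 of the 62 members (40.3%) and in 13.6% of all genes with an entry. AAGATGG, the core of YY1 sites, occurred in 5 members (8.06% against 5.18%). CAGCTG occurred in 4 members (6.45% against 14.7%), which were Rpl3l, Rpl35, Rpl6 and Rpl10l. Of these, Rpl6 did not pass (log2 fold change -0.20, edgeR adjusted p = 0.098) and Rpl10l was at 0 in every library. TATAAA occurred in 4 members (6.45% against 14.3%) and the MEF2 letters searched, CTA and TAG with any 4 bases between them, in none, against 3.70% of genes. Other spellings of a MEF2 site were not searched, so members, Rpl3l included, may hold them. Matches of different motifs were counted separately and may overlap.

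Other genes of translation were described from the same fit, with 18.1% of all tested genes lower and 16.5% higher as the background. That background was 4.19% lower and 64.9% higher with library totals alone, and 6.75% and 33.2% with the ribosomal protein total. Of 36 genes of initiation, a list that also holds the inhibitors Eif4ebp1 and Eif4ebp2, 15 passed as lower and 2 as higher (median -0.20), but 1 and 29 with library totals alone. Eif4e, the cap-binding protein, fell from 186, 185 and 183 CPM to 95.5, 103 and 94.5 CPM, a change large beside its spread (log2 fold change -0.92, edgeR adjusted p = 7.59e-05). Eif3h and Eif2s2, subunits of the initiation complexes eIF3 and eIF2, had values of -0.82 and -0.53 and passed, while Eif3d and Eif3l rose by 0.39 and 0.29. Of 16 genes in a list of elongation, termination and other translation-associated factors, 9 passed as lower and 1, Eef1a1, as higher (median -0.30), but 2 and 11 with library totals. The 9 include Tpt1, Btf3, a subunit of the nascent chain complex, and Gnb2l1, the small-subunit scaffold Rack1, which are not elongation or termination factors. Tpt1, a growth-linked protein with a TOP mRNA, fell from 2813, 2373 and 2452 CPM to 1272, 1166 and 1196 CPM (log2 fold change -1.07, edgeR adjusted p = 0.000133). Eef2k, the kinase that inhibits elongation, and Etf1, the release factor, had log2 fold changes of -0.99 and -0.61 and passed. Under library totals alone Eif4e, Tpt1 and Eef2k were still lower, at -0.20, -0.35 and -0.27. Scaled to the ribosomal protein total, 2 genes of each list were lower, against 7 and 4 higher.

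Of 44 ribosome assembly genes 16 passed as lower and 2 as higher (median -0.19), and with library totals alone 0 were lower and 40 higher. Nmd3, the export adaptor of the large subunit, stood at 38.5, 34.2 and 36.3 in WT and at 24.3, 24.8 and 23.3 CPM in 113Q (log2 fold change -0.59, edgeR adjusted p = 0.00107). Pno1 and Wdr43, factors of small-subunit assembly, had values of -0.47 and -0.38 and passed. Of 19 genes of RNA polymerase I transcription 6 passed as lower and 1, Top2a, as higher (median -0.19; 0 and 14 with library totals), the lower ones including Polr1b and Polr1d, subunits of the enzyme, and its initiation factor Rrn3, at -0.51, -0.46 and -0.42. Of 17 genes of mTOR and TOP mRNA control 8 passed as lower and 1, Sesn1, as higher (median -0.22; 0 and 12 with library totals). Eif4ebp1 and Eif4ebp2 are among these 8 and among the lower genes of the initiation list too. Eif4ebp1, the inhibitor of Eif4e, fell from 130, 133 and 111 CPM to 68.4, 74.3 and 88.0 CPM (log2 fold change -0.69, edgeR adjusted p = 0.00242). Larp4, a poly(A)-associated RNA-binding protein, and Rheb, the activator of mTOR complex 1, had values of -0.57 and -0.40 and passed. With the ribosomal protein total none of the assembly, polymerase I or mTOR genes was lower, and 10, 3 and 2 of them were higher.

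Of 11 other snoRNA host genes 4 passed as lower and Snhg5 as higher (median -0.06), against 1 and 8 with library totals (median 0.66) and 1 and 4 with the ribosomal protein total. Tpt1 is also on this list and among the 4 that passed as lower with TMM. Snhg5 stood at 14.6, 13.2 and 16.1 in WT and at 31.3, 22.3 and 24.4 CPM in 113Q. Of the ribosomal proteins made by genes with other symbols, Rpl36al, a retrocopy of Rpl36a, had a log2 fold change of -0.40 (edgeR adjusted p = 0.00748), but of 0.32 with library totals alone. Fau, which encodes Rps30, was at -0.24 and did not pass (edgeR adjusted p = 0.154).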

How the data were processed

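Messenger RNA of the LA/BC muscle was sequenced from 3 WT and 3 113Q mice, 1 library each. The authors deposited estimated counts per gene, not scaled to depth, and per the submitters' processing notes the tools were TopHat2 2.0.9 with Bowtie2 2.1.0, Cuffdiff 2.1.1 with Cufflinks, cutadapt and FastQC 0.10.0, on the build mm10. How reads matching several genes were handled is not given in the sources used here, nor are the annotation and the strand setting. This matters for ribosomal protein genes, which have many near-identical copies. Between 5.38 and 5.96% of values per library were fractional, and all were rounded.

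Groups were taken from the genotype label. Genes were filtered with filterByExpr (minimum count 10), scaled by TMM and tested 113Q minus WT by the two-sided robust quasi-likelihood F test of edgeR 4.0.16 (R 4.3.3), adjusted by Benjamini-Hochberg over all 16960 tested genes, and called below 0.05. A standard error is the size of the log2 fold change over the root of F. The common biological coefficient of variation was 24.2%. The paralogue ratios used counts per kilobase of the GENCODE M21 main transcript and an exact permutation test (scipy 1.17.1). Starts and upstream sequence came from RefSeq GRCm38.p6. The code was tested on simulated counts.

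Members and lists were chosen with earlier results of these data known. Genes named are the 10 largest rises and falls among members called, all paralogues and their counterparts, the 5 highest members per kilobase in WT, the stalk genes and Rpsa, and up to 3 genes called per list with the smallest p. Others were named after their values were seen. Alternatives were library totals alone, the ribosomal protein total, upper-quartile and RLE factors, other filters, DESeq2 1.42.0, limma voom 3.58.1, no rounding, no robust estimation, a mouse-number block, an Epcam term, a threshold of 0.01 and leaving out each mouse.

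Marker lists for other cell types gave, as higher and lower of those tested, 0 and 8 of 8 for endothelium, 0 and 0 of 8 for fibroblasts, 0 and 0 of 7 for macrophages, 0 and 0 of 4 for lymphocytes, 1 and 1 of 6 for adipocytes and 2 and 0 of 6 for Schwann cells. These counts depended on scaling: with library totals alone they were, in the same order, 1 and 0, 7 and 0, 6 and 0, 2 and 0, 1 and 0 and 4 and 0. Among all tested genes 16.5% were higher and 18.1% lower with TMM, and 64.9% and 4.19% with library totals alone. 1 gene of the other lists is not reported here.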

Additional observations from a re-analysis of the deposited data

How the results depend on the processing

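Both genes of the Rpl3 pair kept sign and call under all 19 alternatives, and the Rpl3l to Rpl3 ratio kept its sign in all 8 of its own. The family's direction depended on scaling. With library totals alone the members' median was 0.38, 1 member was lower and 52 were higher, and 11725 genes of the table were called. With the ribosomal protein total the median was 0.028, with 4 members lower and 5 higher. That scaling uses the members' own sum, so a median near 0 follows from it and it cannot show the family's direction. At an adjusted p below 0.01, 13 members were lower and 3424 genes were called. Leaving out each mouse gave 13 to 42 lower members, 1 higher member, a median of -0.39 to -0.23 and 4325 to 5402 genes called. DESeq2 called 52 members lower, voom 39 and the Epcam term 30.

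These values changed sign with library totals alone, in log2: Rplp0 0.022, Rps14 0.056, Rps25 0.066, Rpsa 0.070, Rplp2 0.10, Rpl35 0.12, Rpl12 0.14, Rpl36 0.16, Rpl36a 0.17, Rpl7 0.43, Rpl10 0.39, Rpl22l1 0.40, Rpl22 0.60, Rpl39 0.33, Rps27l 0.27, Rps27 0.25, Rps4x 0.49, Rps2 0.33, Rplp1 0.27, Rps12 0.45, Polr1b 0.21, Rrn3 0.31, Polr1d 0.25, Nmd3 0.13, Pno1 0.25, Wdr43 0.35, Nop56 0.40, Larp4 0.15, Eif4ebp1 0.026, Rheb 0.32, Etf1 0.11, Eif2s2 0.19 and Rpl36al 0.32. With the ribosomal protein total they were Rpl7 0.076, Rpl10 0.029, Rpl22l1 0.034, Rpl22 0.25, Rps4x 0.13, Rps12 0.10 and Nop56 0.034. Each of these signs is relative to the ribosomal protein genes themselves. Rps27 changed sign with voom (0.11), and leaving out each mouse gave it -0.84 to 0.69, above 0 without WT mouse 2. The cause was not tested.

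The mouse numbers share only a number: same-numbered mice had correlations of deviations of 0.20, 0.24 and -0.27. With the number as a replicate block 32 members were lower, 1 was higher, and 4737 genes were called. Among the genes named, the block ended the call of Rpl36 (edgeR adjusted p = 0.0841) and brought Rpl39 past the threshold (edgeR adjusted p = 0.0251).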
